A study of Homo sapiens with 6 samples.

Results

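The genes examined here are 10 regulators of alternative splicing that have been tied to the epithelial-to-mesenchymal transition (EMT): *ESRP1*, *ESRP2*, *RBM47*, *RBFOX2*, *QKI*, *MBNL1*, *MBNL2*, *CELF2*, *PTBP1* and *SRSF1*. They were chosen by gene symbol, and 10 of the 10 are among the 21293 genes measured. All but *ESRP1* had a mean normalized count of at least 10, so 9 of them entered the test that covered 14395 genes. The RNA came from H2087-LCC cells, a dormancy-competent derivative of the human lung adenocarcinoma (LUAD) line H2087, and was sequenced in 3 groups of 2 libraries. Cells in one group received SB505124 (SB) for 3 days, which blocks the kinase of the type I TGFβ receptor and with it the signal the cultures make themselves. Cells in the other groups received TGFβ for 3 days or for 7 days. No untreated library and no 7-day SB library were analysed here, so TGFβ exposure and time in culture cannot be told apart at 7 days. The libraries of a group are described in the article as technical replicates, and p-values then measure only the spread between these libraries.

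Alternative splicing lets one gene give several mRNAs, and RNA-binding proteins decide which exons are kept by binding near them. In EMT, epithelial cells lose the ESRP proteins, which hold many transcripts in their epithelial form, while RBFOX2 and QKI, and in part MBNL proteins, act on many of the same exons and favor mesenchymal forms of adhesion, cytoskeletal and receptor genes. Several of these factors are also controlled by splicing, translation or localization, which gene-level RNA counts do not show, and the data here hold no measurement of exon use.

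The values are normalized counts, which are read counts per gene divided by a factor for each library and rounded to whole numbers. They summed to between 34306283 and 36340734 per library, and an estimated 34400000 to 40000000 reads per library were assigned to genes. Fold changes were taken on the log2(normalized count + 1) scale in one limma fit of all 6 libraries, and a gene is called changed below an adjusted p of 0.05 (Benjamini-Hochberg over the 14395 genes). Both comparisons with SB share the same 2 SB libraries. The SB libraries were not alike in every lung gene: surfactant gene *SFTPB* stood at 1104 in one and 8273 in the other. Keratin and adhesion markers of epithelium summed to 101970 to 112407 in SB, 98169 to 110423 at 3 days and 88277 to 101192 at 7 days. Keratins made up most of these sums (*KRT8* alone had a mean of 36896.5 in SB), and *KRT7* rose from 6021.5 to 12604.5 at 7 days. The sums hide falls of *CDH1* (mean 503 in SB, 9.5 at 7 days) and *EPCAM* (9643 and 3132.5). Summed markers of leukocytes were between 9 and 24 in every library, and those of fibroblasts between 8 and 16. The 4 endothelial markers summed to 164 to 293 in SB, 153 to 161 at 3 days and 223 to 243 at 7 days. They moved in different directions. In that order of groups, *TEK* rose (11 and 12, 65 and 58, 115 and 117). *PECAM1* was at 41 and 36, 61 and 67, and 56 and 53. *KDR* was lower with TGFβ (98 and 225, 26 and 31, 70 and 53). So was *CDH5* (14 and 20, 1 and 5, 2 and 0). The 3 lung adenocarcinoma markers summed to 3987 to 11415, 744 to 779 and 881 to 884. The part of these markers in the results was not tested.

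**Figure D1:**
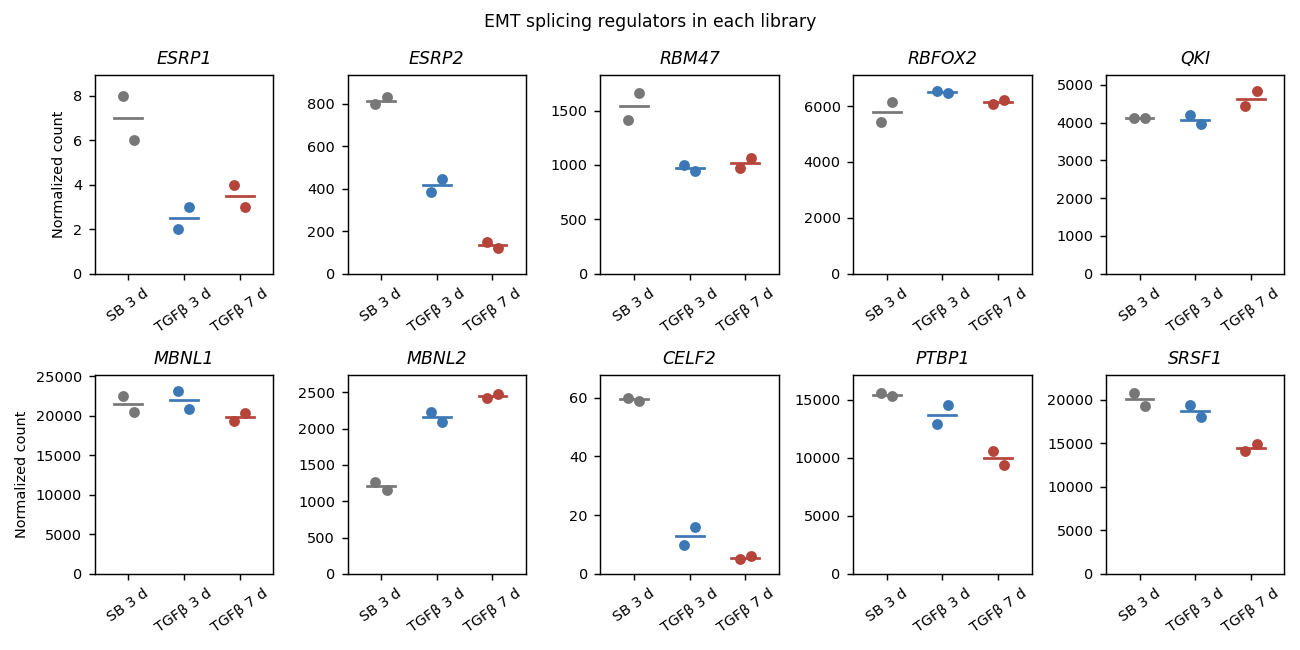
Normalized count (vertical axis, starting at 0 in each panel) of the 10 splicing regulators in each library, with a point per library and a line at the mean of 2 libraries. *ESRP2* went from 797 and 832 in SB to 149 and 121 after 7 days of TGFβ, and *MBNL2* from 1266 and 1155 to 2419 and 2472.

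*ESRP2*, an epithelial splicing regulator, fell in steps. Its normalized counts were 797 and 832 in SB, 386 and 447 after 3 days of TGFβ, and 149 and 121 after 7 days. No group overlapped another, and the 7-day libraries were the lowest. The mean went from 814.5 ± 24.7 (SD, n = 2) in SB to 135 ± 19.8 (SD, n = 2) at 7 days, a 6.03-fold lower level. Against SB, limma gave a log2 fold change of -0.97 ± 0.15 (SE, adjusted p = 0.000437) for the 3-day libraries and -2.59 ± 0.15 (SE, adjusted p = 6.15e-08) for the 7-day libraries. Between 3 and 7 days it fell by a further 1.62 on the log2 scale (adjusted p = 2.69e-05). The gene lies on chromosome 16 (68262936 to 68272005, GRCh37, minus strand), and 6.62% of the exon bases of its canonical transcript are also covered by *NFATC3*.

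*ESRP1*, the paralogue with largely the same targets, was scarcely detected. Its normalized counts were 8 and 6 in SB, 2 and 3 at 3 days, and 4 and 3 at 7 days. SB was the highest group without overlap, but every value is close to a few reads. Without the filter on low values, the log2 fold change was -1.20 (95% interval -2.04 to -0.35, adjusted p = 0.0753) at 3 days and -0.83 (95% interval -1.67 to 0.01, adjusted p = 0.113) at 7 days, so no change was detectable at this depth. Per kilobase of canonical transcript, *ESRP2* made up 99.2% of the ESRP level in SB, and 99.5% and 97.7% after 3 and 7 days of TGFβ. Nearly all ESRP mRNA of these cells was *ESRP2*.

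*RBM47*, an RNA-binding protein of epithelial cells that regulates splicing and mRNA stability, fell by 3 days and showed no further step. Its normalized counts were 1416 and 1660 in SB, 1003 and 947 at 3 days, and 968 and 1067 at 7 days. Both TGFβ groups lay below SB and overlapped each other. On the log2 scale it fell by 0.65 after 3 days (SE 0.11, adjusted p = 0.00101) and its 7-day fold change was -0.59 (SE 0.11, adjusted p = 0.000867). Between the TGFβ groups the difference was 0.06 (95% interval -0.19 to 0.31, adjusted p = 0.714). *RBM47* lies on chromosome 4 (40425284 to 40632892, GRCh37, minus strand).

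Of *RBFOX2*, *QKI*, *MBNL1* and *MBNL2*, only *MBNL2* was called higher. *RBFOX2* and *QKI*, which favor mesenchymal forms, were not called in any comparison. MBNL proteins bind YGCY motifs and promote differentiation-stage exons in muscle and other tissues. *MBNL2* had normalized counts of 1266 and 1155 in SB, 2223 and 2097 at 3 days, and 2419 and 2472 at 7 days. The 3 groups did not overlap, though the step between the TGFβ groups was small. Its log2 fold change was 0.84 ± 0.09 (SE, adjusted p = 4.05e-05) for 3 days against SB and 1.02 ± 0.09 (SE, adjusted p = 3.70e-06) for 7 days, and the mean at 7 days was 2.02 times that in SB. From 3 to 7 days the difference was 0.18 (95% interval -0.03 to 0.39, adjusted p = 0.165).

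*MBNL1*, the abundant member of that family, had normalized counts of 22449 and 20461 in SB, 23107 and 20871 at 3 days, and 19336 and 20282 at 7 days. The SB and 3-day groups overlapped, and the 7-day libraries lay just below both. The log2 fold change was 0.04 (95% interval -0.15 to 0.22, adjusted p = 0.795) at 3 days and -0.11 (95% interval -0.30 to 0.07, adjusted p = 0.278) at 7 days. The sign of the 3-day value turned negative (-0.02) with equal library totals.

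*RBFOX2*, which binds UGCAUG and acts on many exons that switch in EMT, had normalized counts of 5430 and 6138 in SB, 6545 and 6464 at 3 days, and 6084 and 6211 at 7 days. The 3-day libraries lay above SB, and the 7-day libraries overlapped SB. At 3 days the log2 fold change was 0.17 (95% interval -0.01 to 0.36, adjusted p = 0.156), and at 7 days 0.09 (95% interval -0.10 to 0.28, adjusted p = 0.391). Without the second SB library the 3-day value was 0.26 and passed the threshold (adjusted p = 0.0465).

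*QKI*, which controls exon choice and the formation of circular RNAs in EMT, had normalized counts of 4120 and 4125 in SB, 4203 and 3965 at 3 days, and 4433 and 4841 at 7 days. The 7-day libraries were the highest, with no overlap with the others. The log2 fold change was -0.01 (95% interval -0.20 to 0.17, adjusted p = 0.921) at 3 days and 0.17 (95% interval -0.02 to 0.35, adjusted p = 0.115) at 7 days. The intervals exclude a 2-fold change of *RBFOX2*, *QKI* or *MBNL1* at either time.

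*CELF2*, known for splicing switches in T cells, heart and muscle, had the largest falls of the 9 genes tested in both comparisons with SB, from a low level. Its normalized counts were 60 and 59 in SB, 10 and 16 at 3 days, and 5 and 6 at 7 days. The 3 groups did not overlap, and at 7 days the level rested on a few reads per library. Relative to SB, log2 fold changes were -2.15 ± 0.37 (SE, adjusted p = 0.000941) for the 3-day and -3.22 ± 0.37 (SE, adjusted p = 1.88e-05) for the 7-day libraries. The step from 3 to 7 days, -1.08 (adjusted p = 0.041), was no longer called without the second 3-day library (-0.76, adjusted p = 0.265), the first 7-day library (-0.97, adjusted p = 0.155) or the other 7-day library (-1.19, adjusted p = 0.0944). With a pseudocount of 5 it was -0.76 (adjusted p = 0.0569). Its paralogue *CELF1*, which is widely expressed, gave 99.5% of the *CELF1* and *CELF2* level per kilobase in SB.

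*PTBP1*, the polypyrimidine tract-binding protein that represses neuronal and muscle exons, fell late. Its normalized counts were 15584 and 15316 in SB, 12904 and 14525 at 3 days, and 10579 and 9391 at 7 days. The 3 groups did not overlap, but the 3-day libraries differed from each other by more than the others did. The 3-day log2 fold change was -0.17 (95% interval -0.37 to 0.02, adjusted p = 0.169), and that of 7 days was -0.63 ± 0.09 (SE, adjusted p = 0.000105). From 3 to 7 days it was -0.46 ± 0.09 (SE, adjusted p = 0.00285), and -0.37 (adjusted p = 0.0548) without the second 7-day library.

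*SRSF1*, the founding SR protein, which binds exonic enhancers and promotes inclusion of the exons it binds, was also called lower only where the 7-day libraries entered. Its normalized counts were 20829 and 19293 in SB, 19361 and 18069 at 3 days, and 14059 and 14929 at 7 days. The SB and 3-day groups overlapped, and the 7-day libraries lay below both. After 3 days its log2 fold change was -0.10 (95% interval -0.28 to 0.08, adjusted p = 0.394), and after 7 days -0.47 ± 0.08 (SE, adjusted p = 0.000474). From 3 to 7 days it was -0.37 (adjusted p = 0.00557), with adjusted p of 0.0587 when the first 3-day library was left out and 0.077 when the first 7-day library was.

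**Figure D2:**
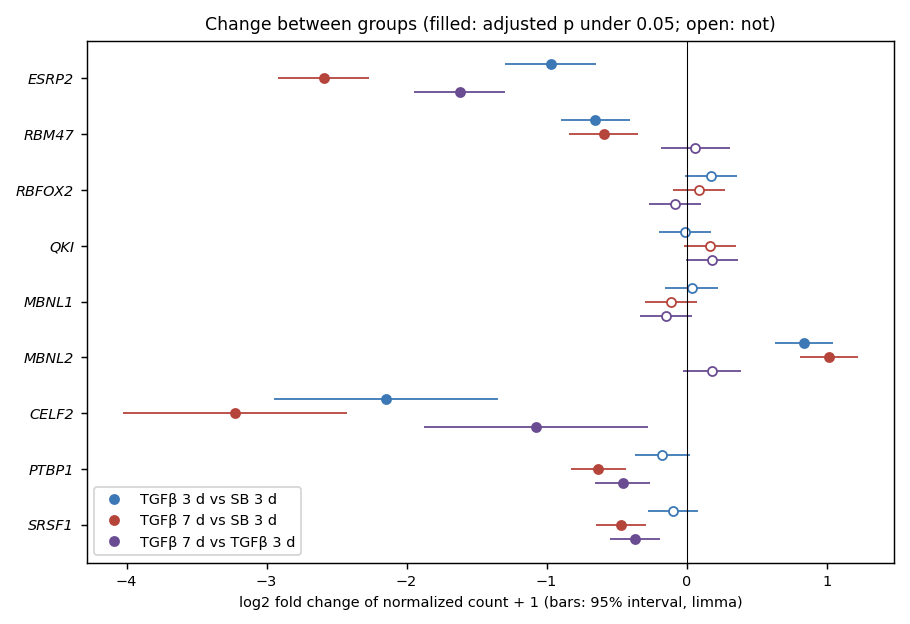
Log2 fold change of the normalized count + 1 (horizontal axis) for the 9 tested regulators in 3 comparisons, with 95% intervals from limma; filled points have an adjusted p under 0.05. *ESRP2*, *RBM47* and *CELF2* lie below 0 and *MBNL2* above 0 in both comparisons with SB, and *PTBP1* and *SRSF1* are filled only in the comparisons that hold the 7-day libraries.

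After 3 days of TGFβ, 1 of the 9 regulators was higher, 3 were lower and 5 were not called. Among all 14395 genes tested, 29.0% were called in this comparison, 14.9% higher and 14.0% lower. After 7 days, 1 was higher, 5 were lower and 3 were not called, beside 54.5% of all genes, 27.7% higher and 26.9% lower. From 3 to 7 days none was higher and 4 were lower (*ESRP2*, *CELF2*, *PTBP1* and *SRSF1*), beside 33.2% of all genes, 17.0% higher and 16.2% lower. With 9 genes, the counts called in either direction (4, 6 and 4) say little of the group as a whole, and the genes are best read one by one. Without the first or without the second 7-day library, 2 rather than 4 were lower between 3 and 7 days. The median log2 fold change of the 9 was -0.10 at 3 days against -0.02 for all genes, and -0.47 at 7 days against -0.00081 for all genes.

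Levels were compared between genes only per kilobase of the canonical GENCODE transcript. In SB, *PTBP1* stood at 4819 ± 59.1 (SD, n = 2) normalized counts per kilobase, *MBNL1* at 3890 ± 254.8 and *SRSF1* at 3755 ± 203.3, and the last 2 did not separate beyond their spread. With the union of all exons as the length, the order at the top became *SRSF1*, *MBNL1* and *PTBP1*. Below them in SB came *RBFOX2* at 802 ± 69.4, *QKI* at 439.3 ± 0.377, *RBM47* at 300.7 ± 33.7, *MBNL2* at 260.3 ± 16.9 and *ESRP2* at 237.5 ± 7.22. *CELF2* (6.33 ± 0.0752) and *ESRP1* (1.86 ± 0.375) were at the bottom. With union exon lengths *MBNL2* (232.7) lay above *RBM47* (180) already in SB, so the order of these neighbours depends on the length used. At 7 days *MBNL2* stood at 525.9 ± 8.06 and *RBM47* at 199 ± 13.7, and *ESRP2* had dropped to 39.4 ± 5.77 per kilobase.

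The MBNL and PTBP families shifted in makeup. *MBNL2* made up 6.20% of the MBNL level per kilobase in SB, 10.3% at 3 days and 12.7% at 7 days (9.60%, 15.6% and 18.9% with union exon lengths), while *MBNL1* remained the main member at 92.7%, 88.6% and 86.4%. *MBNL3* had normalized counts of 623 and 549 in SB, 645 and 592 at 3 days, and 436 and 516 at 7 days, and its fall from 3 to 7 days (-0.38, adjusted p = 0.0448) was lost without any single TGFβ library. *PTBP1* made up 76.4% ± 0.234 (SD, n = 2) of the PTBP level in SB and 67.2% ± 3.57 at 7 days. With union exon lengths the *PTBP1* shares were 67.2% and 56.9%. *PTBP2*, the neuronal paralogue, ranged from 1250 to 1566 over the 6 libraries, and *PTBP3* from 7205 to 8492, and neither was called in any comparison. The larger shares of *PTBP2* (6.63% to 9.74%) and *PTBP3* (16.9% to 23.0%) came with a lower *PTBP1*. With union exon lengths these shares were 2.26% to 3.19% and 30.5% to 39.9%, so the makeup depends on the length used. *CELF1* had normalized counts of 9687 and 9268 in SB, 8625 and 8257 at 3 days, and 7473 and 7674 at 7 days, and its 7-day log2 fold change was -0.32 (adjusted p = 0.00412).

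**Figure D3:**
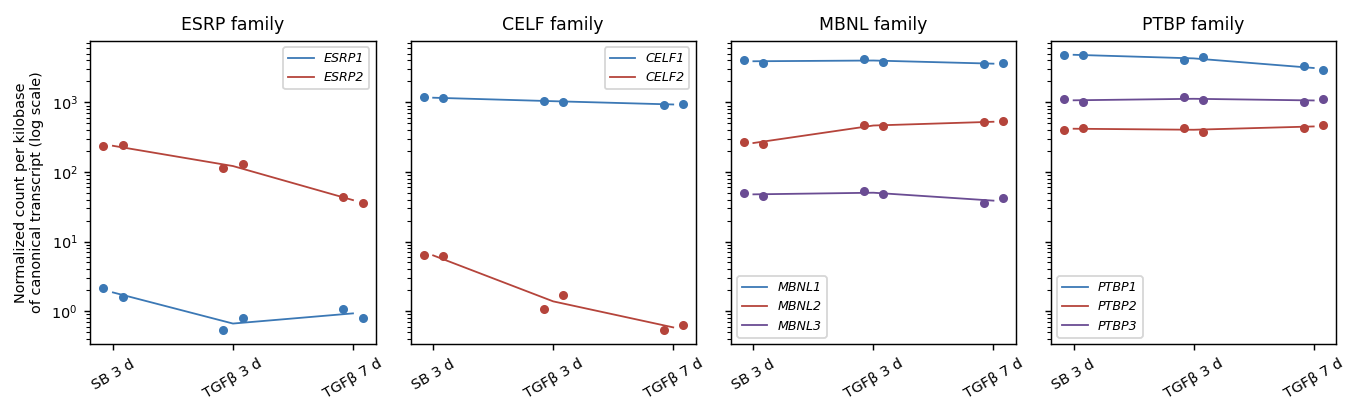
Normalized count per kilobase of canonical transcript (log vertical axis) for the members of 4 families, with a point per library and a line through the group means. *ESRP2* fell from 237.5 to 39.4 per kilobase, *CELF2* from 6.33 to 0.585, and *MBNL2* rose from 260.3 to 525.9 while *MBNL1* stayed between 3591 and 3986.

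The wider splicing machinery was described from lists of related genes. Of all genes tested, 14.9% were higher and 14.0% lower at 3 days, and 27.7% and 26.9% at 7 days. From 3 to 7 days the shares were 17.0% and 16.2%. Of 35 core spliceosome genes, 4 were lower and none higher at 3 days, and 30 were lower and 1 higher at 7 days (median log2 fold change -0.46, against -0.00081 for all genes). The largest falls at 7 days were in *SNRPF* (-0.74) and *SNRPA* (-0.71), of the Sm ring and the U1 particle, and *SF3A2* (-0.69), of the U2 particle. *SF3B1*, the branch-point subunit, was the 1 higher gene (0.21, adjusted p = 0.0481), a call lost in 6 of the 10 alternatives that left out no replicate, and also when the first SB library or any TGFβ library was left out. The 3-day count depended on the processing, from 0 without the trend term or without the first SB or first 3-day library to 11 with equal library totals. Between 3 and 7 days 19 were lower, with 10 when the second 3-day library was left out, 12 for the first 7-day library and 7 for the second, and 8 without the trend term.

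Of 23 hnRNP genes tested, which code for proteins that coat nascent RNA, 2 were lower at 3 days and 15 at 7 days, with none higher (median -0.32 at 7 days). *HNRNPD* (-0.67), *HNRNPF* (-0.59) and *RALY* (-0.59) fell the most. At 3 days, *HNRNPD* (-0.30, adjusted p = 0.0199) and *HNRNPF* (-0.32, adjusted p = 0.00964) were the 2 called, and the count went from 0 without the trend term to 7 with equal library totals, and was 1 without the first SB, first 3-day or second 3-day library. Between 3 and 7 days 12 were lower, with 2 to 6 when any single TGFβ library was left out (3 and 6 for the first and second 3-day libraries, 2 and 3 for the 7-day ones), and with all libraries it was 2 without the trend term and 7 without the filter. *HNRNPH2*, at 3 to 10 in every library, was not tested.

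SR proteins and their kinases were more mixed. Of 19 tested, 2 were lower at 3 days, and 2 were higher and 5 lower at 7 days (median -0.11), beside 27.7% and 26.9% of all genes. The 3-day count was 0 or 1 with any library but the first SB library left out, and ran from 0 without the trend term to 4 with equal library totals. With equal library totals 8 were lower at 7 days. *SRPK1*, a kinase that phosphorylates SRSF1, went from 9310 and 9372 in SB to 7824 and 7477 at 3 days and 5559 and 5808 at 7 days (-0.72, adjusted p = 1.39e-05), although 43.2% of its exon bases are shared with another gene. *SRSF3* (-0.45) and *TRA2B* (-0.34) were also lower. The nuclear kinases *CLK4* (0.80) and *CLK1* (0.62) were higher at 7 days, and both lay near the SB level at 3 days (0.05 and 0.07). Without the first 7-day library 3 were lower, and without the second SB library 4 were higher.

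Of 12 other tissue-regulated splicing factors tested, 4 were higher and 7 lower at 7 days, beside 27.7% and 26.9% of all genes. Without the second 7-day library 3 were lower. *RBPMS2* (-1.21), *RBPMS* (-0.64) and *KHDRBS3* (-0.58) were lower, and *TIA1* (0.46), *RBM5* (0.34) and *RBM4* (0.25), of which TIA1 and RBM5 are known to act on exon choice in FAS, were higher. *NOVA2*, a neuronal splicing factor singled out after its values were seen, had normalized counts of 1 and 0 in SB, 7 and 3 at 3 days, and 37 and 36 at 7 days.

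**Figure D4:**
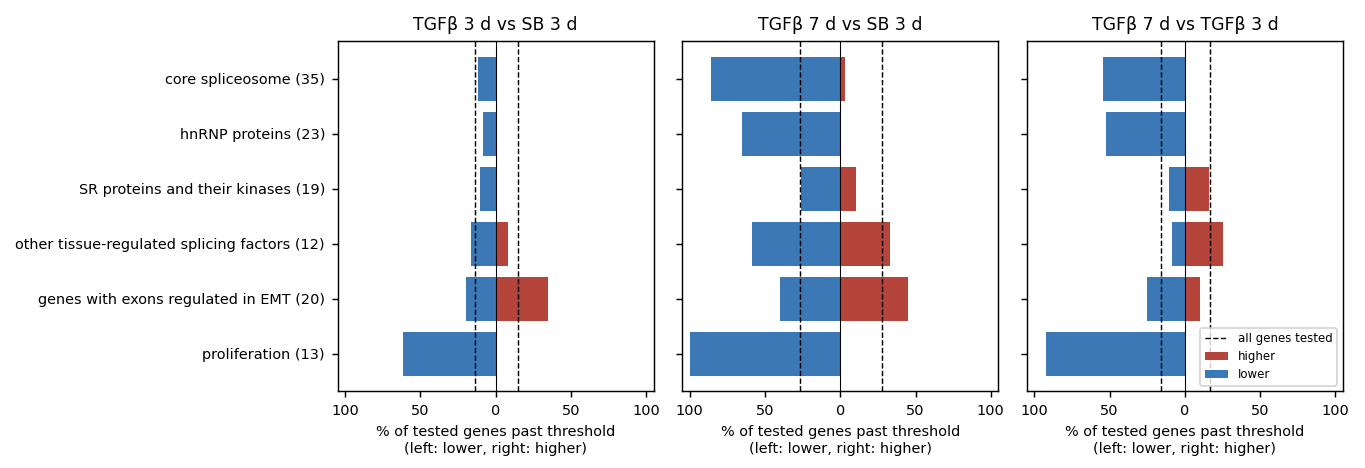
Percent of tested genes of each list that were called higher (right of 0) or lower (left of 0) in each comparison, with the number of genes tested in parentheses; dashed lines give the share of all genes tested. At 7 days against SB, 30 of 35 core spliceosome genes and 15 of 23 hnRNP genes were lower, beside 26.9% of all genes.

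Proliferation genes were lower too, more of them already at 3 days. All 13 (replication, mitosis and *MYC*) were lower at 7 days and 8 were lower at 3 days (median -0.77 and -0.38). At 3 days, 4 of 35 core spliceosome genes and 2 of 23 hnRNP genes were lower. Of all genes, 26.9% were lower at 7 days and 14.0% at 3 days. *MYC* itself went from 16285 and 13846 in SB to 14016 and 14898 at 3 days and 6907 and 6614 at 7 days. The part of the proliferation change in the lower *PTBP1*, *SRSF1*, core spliceosome and hnRNP levels was not tested. In bulk RNA, fewer cells that make a transcript and less of it per cell cannot be told apart.

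**Figure D5:**
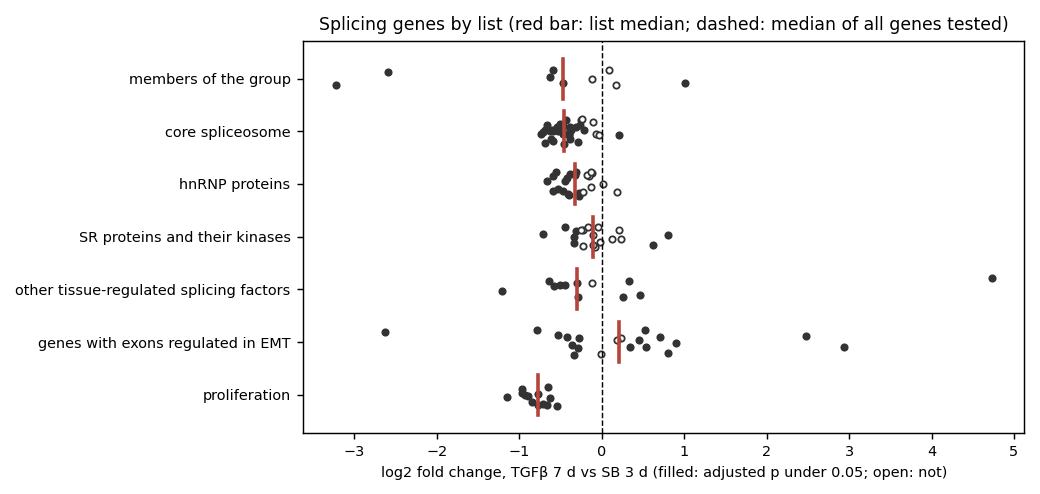
Log2 fold change at 7 days of TGFβ against SB (horizontal axis) for each tested gene of the splicing lists, by list, with the list median as a red bar and the median of all genes as a dashed line; filled points have an adjusted p under 0.05. The core spliceosome lay at a median of -0.46 and the hnRNP genes at -0.32, while *ESRP2*, *CELF2* and *MBNL2* lay outside the range of those lists. Other tissue-regulated splicing factors ran from -1.21 to 4.73, and genes with exons regulated in EMT from -2.63 to 2.93. *MBNL2* lay inside both of these ranges, and *ESRP2* inside the latter.

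Genes whose exons switch in EMT were also measured at the gene level, which does not show the switch. Of 20 tested, 7 were higher and 4 lower at 3 days, and 9 were higher and 8 lower at 7 days (median 0.14 and 0.20). Of all genes tested, 14.9% were higher and 14.0% lower at 3 days, and 27.7% and 26.9% at 7 days. At 3 days, 2 were lower when the second SB or second 3-day library was left out, and at 7 days 4 or 5 when the first or second 7-day library was. *LSR*, a tricellular junction gene, fell (-2.63), as did the polarity gene *SCRIB* (-0.78). *SLC37A2* (2.93), the Notch inhibitor *NUMB* (0.90) and the laminin receptor subunit *ITGA6* (0.81) rose. *CD44*, whose variable exons ESRP proteins keep, had normalized counts of 21533 and 17337 in SB, 30932 and 27810 at 3 days, and 25677 and 27090 at 7 days, higher by 0.60 on the log2 scale at 3 days (adjusted p = 0.00104) and by 0.45 at 7 days. *FGFR2*, the classic ESRP target with epithelial and mesenchymal exons, was near the detection limit at 5 and 4 in SB and 31 and 28 at 7 days.

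Of 5 tested transcription factors that act on ESRP and other epithelial genes, 3 were higher and 2 lower in both comparisons with SB. Of all genes, 14.9% were higher and 14.0% lower at 3 days, and 27.7% and 26.9% at 7 days. From 3 to 7 days 1 factor was higher (*ZEB1*, 0.30) and 1 lower (*GRHL1*, -0.80), beside 17.0% and 16.2% of all genes. The *ZEB1* call in that step was lost when any single TGFβ library was left out. *ZEB1*, a repressor of ESRP genes, had normalized counts of 2702 and 2567 in SB, 5073 and 4770 at 3 days, and 5898 and 6223 at 7 days (1.20, adjusted p = 3.34e-07 at 7 days). *SNAI1* (2.40) and *SNAI2* (1.67) were higher at 7 days too. The epithelial activators *GRHL1* (-1.76) and *ELF3* (-4.32) fell, with *ELF3* at 1359 and 4388 in the SB libraries, 66 and 71 at 3 days, and 124 and 118 at 7 days. *OVOL2* was at 9 and 9 in SB and at 0, 0, 1 and 0 with TGFβ. E-cadherin (*CDH1*) went from 371 and 635 in SB to 10 and 9 at 7 days (-5.54, adjusted p = 2.78e-08) and *EPCAM* fell by 1.62, while the keratin gene *KRT7* rose (1.06). The part of these factors in the lower *ESRP2* was not tested.

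Promoter sequence was read for the 6 regulators listed in the RefSeq promoter table used here (GRCh38.p14), over windows of 250 bases before and 50 after each start, 22 windows in all. The promoters of *ESRP1*, *ESRP2*, *RBFOX2* and *QKI* were not analysed here. CACCTG with its reverse complement CAGGTG, the E-box form bound by ZEB and SNAI proteins, was found in 2 of the 22 windows and in 20.6% of all 35116 windows. They were 1 of 4 *RBM47* windows, 208 bases before a start, and 1 of 10 *CELF2* windows, 14 bases after a start. AACCGGTT, which GRHL proteins bind, and GTCTAGAC, a SMAD palindrome, were in none of the 22 (0.134% and 0.202% of all windows). Of motifs added after the values were seen, CACGTG was in 1 window (*MBNL1*, 7.26% of all) and TGANTCA, bound by AP-1 on either strand, in 2 (*CELF2* and *MBNL2*, 7.71% of all). The *RBM47* stretch on chromosome 4 (chr4:40514762-40514831, minus strand) and the *MBNL2* stretch on chromosome 13 (chr13:97141684-97141833, plus strand) are shown as examples from a gene that fell and a gene that rose, with the matches in capitals. The *MBNL2* matches are to a motif added after the values were seen. The *RBM47* window was chosen for its CACCTG match, and the *MBNL2* window is the first listed of 2. Only 70 bases of the first and 150 of the second are shown.
RBM47: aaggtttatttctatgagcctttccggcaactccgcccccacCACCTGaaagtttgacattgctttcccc
MBNL2: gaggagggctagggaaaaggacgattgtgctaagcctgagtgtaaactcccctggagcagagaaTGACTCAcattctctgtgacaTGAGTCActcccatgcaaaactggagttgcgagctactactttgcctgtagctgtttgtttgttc
The *MBNL2* window held 2 matches, 86 and 65 bases before its start. A match is a description of letters, not a bound site, and which start the cells use was not measured.

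The genes nearest in pattern to *CELF2*, by the distance between log2 values centered on the SB mean over the 4 TGFβ libraries among 11389 genes, were *MAMLD1* (0.453), *PPP1R9A* (0.659) and *SMPDL3B* (0.661). Those nearest to *MBNL2* were *IL15* (0.0462), *RBMS1* (0.0603) and *ITPR1* (0.0699). *RBMS1* itself codes for an RNA-binding protein.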

How the data were processed

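Gene expression was measured by RNA-seq in H2087-LCC cells, in 3 groups of 2 libraries. Per the labels and the article, read pairs were mapped to the human genome hg19 with STAR and assigned to genes with HTSeq 0.6.1p1, in libraries of a kit that does not mark strand, so reads of a gene and its antisense partner cannot be told apart. The authors deposited counts normalized for library size and rounded to whole numbers, which are treated here as a score, since read counts per gene are not recovered from them and count models were not used. FastQC 0.11.5 and DESeq2 3.4 are named in the submitters' processing notes. What 1 read was worth per library was estimated from the low values.

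Genes whose mean was 10 or more were taken as log2(value + 1) and fitted with limma 3.58.1 in R 4.3.3 (empirical Bayes with a trend, group as the only term, 3 residual degrees of freedom), 2-sided, with Benjamini-Hochberg adjustment over all genes tested at 0.05. All 10 members are named, and from each list the 3 largest rises and falls at 7 days against SB among called genes with a mean of at least 100. Genes of the paralogue and EMT regulator lists may be named too. A gene that this rule selects is not reported here. The members and lists were chosen with earlier results of these data known. Alternatives were pseudocounts of 0.5 and 5, no filter, a mean of at least 50, 3 other scalings, no trend, only the 4 libraries compared, the replicate number as a block, and each library left out. Lengths and positions came from GENCODE on GRCh37, and promoters from RefSeq on GRCh38.p14. Plots used matplotlib 3.10.9 (Python 3.11.15). *RBFOX1*, *ZEB2*, *TWIST1* and *KHDRBS2* were not analysed here.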

Additional observations from a re-analysis of the deposited data

Results flagged for a closer look

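Between the 7-day and 3-day TGFβ libraries, 4 of the 9 regulators tested differed by the limma contrast, beside 33.2% of all genes called (16.2% lower). SB libraries exist only for 3 days, so this contrast does not separate TGFβ exposure from time in culture. The log2 difference was -1.62 for *ESRP2*, -1.08 for *CELF2*, -0.46 for *PTBP1* and -0.37 for *SRSF1*. Of the 4, 2 were called without the first 7-day library (*CELF2* adjusted p = 0.155 and *SRSF1* 0.077 were not) and 2 without the second (*CELF2* 0.0944 and *PTBP1* 0.0548 were not). In each of the 4 the 7-day libraries lay below both 3-day libraries, which picking genes called lower nearly ensures. The uncalled *RBFOX2*, *QKI*, *MBNL1* and *MBNL2* also did not overlap between these groups, so lack of overlap does not set the 4 apart. The share of all genes without overlap was not computed, so it is not read as a trait of the regulators. The value of *CELF2* rests on 10 and 16 normalized counts at 3 days against 5 and 6 at 7 days.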

How the results depend on the processing

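Over the alternatives that kept all 6 libraries or the 4 compared, 262 of 267 fold changes of the regulators kept their direction and side of the threshold, 4 were no longer called and 1 changed sign. With 1 library left out, 151 of 162 did. The calls of *ESRP2*, *RBM47* and *MBNL2* against SB held under every alternative run. All values that changed sign were of uncalled differences near 0: with equal library totals the 3-day value of *MBNL1* was -0.0206, and with 1 library left out it ranged from -0.0383 to 0.109 (-0.0317 without the second SB library), that of *QKI* from -0.0562 to 0.0279, and the 7-day against 3-day value of *RBM47* from -0.00979 to 0.131. The number higher at 3 days against SB ranged from 1 to 2 with 1 library left out (2 without the second SB library), and the number lower between 3 and 7 days from 2 to 4. With a mean of at least 50 required, *CELF2* (mean 26) was not tested. The number lower against SB was then 2 at 3 days and 4 at 7 days. *CELF2* from 3 to 7 days was also uncalled without the filter (adjusted p = 0.072) and with the 4 libraries alone (0.0614), and *SRSF1* without the trend (0.0507). The cause was not tested. With equal library totals, all genes split into 1819 higher and 2550 lower at 3 days, against 2149 and 2021.

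The labels give groups the same replicate numbers, but nothing says that they pair libraries. With the number as a replicate block, 1 regulator was higher and 3 were lower at 3 days, 1 and 5 at 7 days, and 0 and 4 between 7 and 3 days. The differences between libraries 1 and 2 correlated at 0.21 between SB and 3 days, -0.13 between SB and 7 days, and -0.65 between 3 and 7 days over 11389 genes. Counts of single digits limit *ESRP1* and, at 7 days, *CELF2*.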
